A study of Mus musculus with 10 samples.

Results

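The Grainyhead and CP2 family of transcription factors has 6 genes in the mouse, Grhl1, Grhl2, Grhl3, Tfcp2, Tfcp2l1 and Ubp1. They were taken by gene symbol from the table of 22114 protein-coding genes, and all 6 were found. Bulk RNA sequencing had been performed on the first pharyngeal arch (PA1), the embryonic structure that gives rise to the upper and lower jaw and the palate, of male mouse embryos at E10.5, labelled C57BL/6, from a Grhl2 line that the study's methods give as back-crossed to C57BL/6J. There were 5 Grhl2+/+ and 5 Grhl2-/- embryos, with 1 PA1 library per embryo and no treatment. Grhl2-/- embryos carry a gene-targeted null allele of Grhl2 in every cell, so effects of its loss within PA1 and elsewhere in the embryo cannot be told apart. Arches are named here by the genotype and number in their labels, for example WT1-566 and KO1-588. The question was whether the other family members change when Grhl2 is lost.

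Grainyhead-like (GRHL) proteins are DNA-binding factors of surface and lining epithelia, where they activate genes of cell adhesion, of tight junctions and of the epidermal barrier. GRHL1, GRHL2 and GRHL3 share a DNA-binding domain and a dimerization domain and bind nearly the same site, a palindrome whose core is AACCGGTT, so they can stand in for each other at some target genes. The CP2 branch is built on a related DNA-binding domain. Tfcp2 and Ubp1 are expressed in most tissues and take part in globin and general promoter regulation, while Tfcp2l1 is best known from pluripotent cells and from the ducts of kidney and salivary gland.

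Grhl2 was downregulated in Grhl2-/- PA1, and none of the other 5 members passed the test in either direction. Of the 6 members, 1 was called lower and 0 were called higher by limma-voom (FDR below 0.01). Over the 14561 genes tested, 1.09% were called lower and 0.879% higher. The member called lower was Grhl2, the targeted gene, so its call follows from the design and is not a result about the family. Among the other 5 members none had an unadjusted p below 0.05 in this fit, which 14.3% of all genes tested reached as lower and 14.2% as higher, and edgeR and DESeq2 also called 0 members higher. The groups did not overlap for 2 of 6 members, against 8.88% of all genes tested. These were the targeted gene Grhl2, and Grhl1, whose groups were parted by less than 1 read. All 6 members had at least 10 reads in at least 1 arch of each genotype and so passed the filter. Values are TMM-normalized CPM (counts scaled to a common library size), given as mean ± SD over 5 arches, and FDR values are adjusted over all genes tested.

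**Figure D1:**
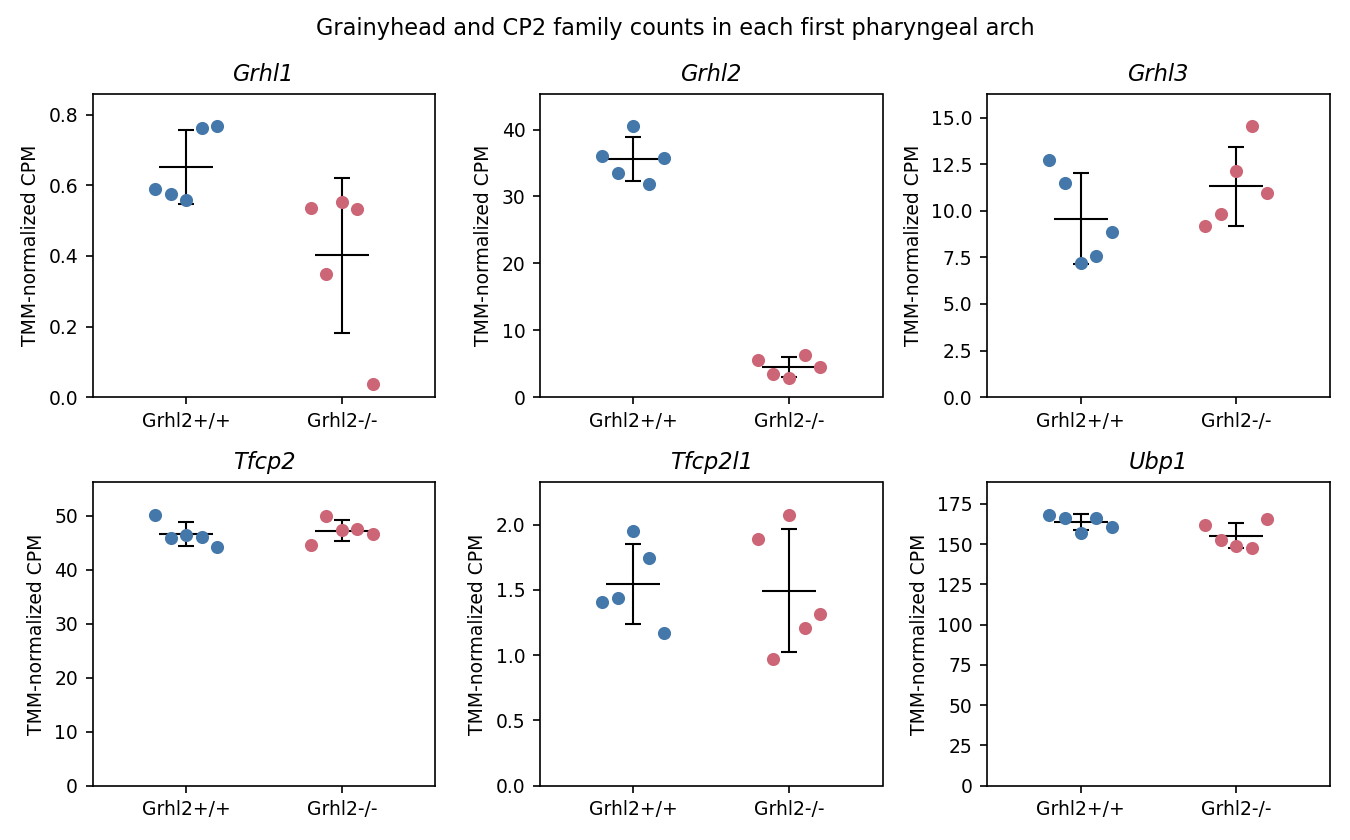
TMM-normalized CPM of each member (vertical axes, linear, from 0, each on its own scale) in 5 Grhl2+/+ and 5 Grhl2-/- arches (horizontal axes). Points are arches, and bars are the mean ± SD. The groups lie far apart for Grhl2, are parted by a narrow gap for Grhl1, and overlap for the other 4 genes.

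Grhl2, the targeted gene, lies on the plus strand of GRCm38 at chr15:37233036-37363569. It had 36.1, 33.5, 40.5, 31.8 and 35.8 CPM in WT1-566, WT1-568, WT3-588, WT5-566 and WT8-568. It had 5.56, 3.49, 2.80, 6.33 and 4.48 CPM in KO1-588, KO1-628, KO2-566, KO2-568 and KO3-604. Every Grhl2-/- arch was below every wild-type arch. The wild-type mean was 35.6 ± 3.29 CPM and the mutant mean 4.53 ± 1.45 CPM (SD, n = 5 in either group). On the log2 scale the change was -3.02 with a standard error of 0.174 (limma-voom, FDR 2.67e-06). This is 8.13-fold lower, and 12.8% of the wild-type CPM remained. The remaining signal rested on 81 to 178 reads per arch and was above the level of 3 reads, which was 0.104 to 0.136 CPM. Counts are per gene, so the exons that the remaining reads came from cannot be read from them, and 169 exon bases of Grhl2 overlap the antisense gene Gm16136 on the other strand.

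Grhl3, with Grhl2 the other abundant Grhl gene in these arches, is required in surface ectoderm for closure of the posterior neural tube and for the skin barrier. It lies on the minus strand at chr4:135541888-135573630 and overlaps no other annotated gene. It had 12.7, 11.5, 7.18, 7.56 and 8.89 CPM in WT1-566, WT1-568, WT3-588, WT5-566 and WT8-568. In KO1-588, KO1-628, KO2-566, KO2-568 and KO3-604 it had 9.17, 9.84, 12.1, 14.6 and 10.96 CPM. KO2-568 was the highest of all arches, but WT1-566 and WT1-568 lay within the range of the mutants. The means were 9.57 ± 2.44 CPM in Grhl2+/+ and 11.3 ± 2.12 CPM in Grhl2-/- (SD, n = 5 each), and the log2 fold change of 0.28 did not pass the test (95% confidence interval -0.10 to 0.66, FDR 0.302 from limma-voom). The interval runs from 0.934-fold to 1.58-fold of the wild-type level.

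WT1-566 and WT1-568, the highest wild-type arches for Grhl3, were also those with the fewest sensory neuron transcripts. The summed level of 12 sensory neuron genes was 50.1 and 42.3 CPM in them, 631.1 to 1061 CPM in the other 3 wild-type arches and 355.0 to 1373 CPM in the Grhl2-/- arches. Of these 12 genes 0 were called lower and 0 higher by limma-voom, edgeR or DESeq2 (2 were higher at an unadjusted p below 0.05 with limma-voom, as were 14.2% of all genes tested), with a median log2 fold change of 2.06. None of the 12 was at 0 in any arch. Of these genes, Isl1, Neurod1 and Tubb3 had means of 53.8, 24.3 and 153.0 CPM in Grhl2+/+ and 79.2, 38.4 and 245.8 CPM in Grhl2-/-. Within wild type Neurod1 ran from 0.503 to 50.7 CPM and Tubb3 from 6.61 to 334.0 CPM, while Isl1 ran only from 22.1 to 94.7 CPM. The 7 glial genes (0 called, a median log2 fold change of 0.81) had summed levels of 50.4 and 48.0 CPM in the same arches, 133.8 to 206.4 CPM in the other wild-type arches and 81.2 to 238.1 CPM in the mutants. Without WT1-566 and WT1-568, a comparison chosen after the data were seen, Grhl3 was at 7.18 to 8.89 CPM in 3 wild-type arches and 9.17 to 14.6 CPM in 5 mutants, so the groups did not overlap. This held for 12.4% of all genes tested in these 8 arches, and the arches left out were the wild-type arches with the most Grhl3. The log2 fold change was then 0.51 (1.10-fold to 1.83-fold, FDR 0.169 from limma-voom), and with the sensory neuron level as a covariate it was 0.48 (FDR 0.133). Grhl3 was called in neither fit. The part of these other cells in the Grhl3 values was not tested.

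**Figure D2:**
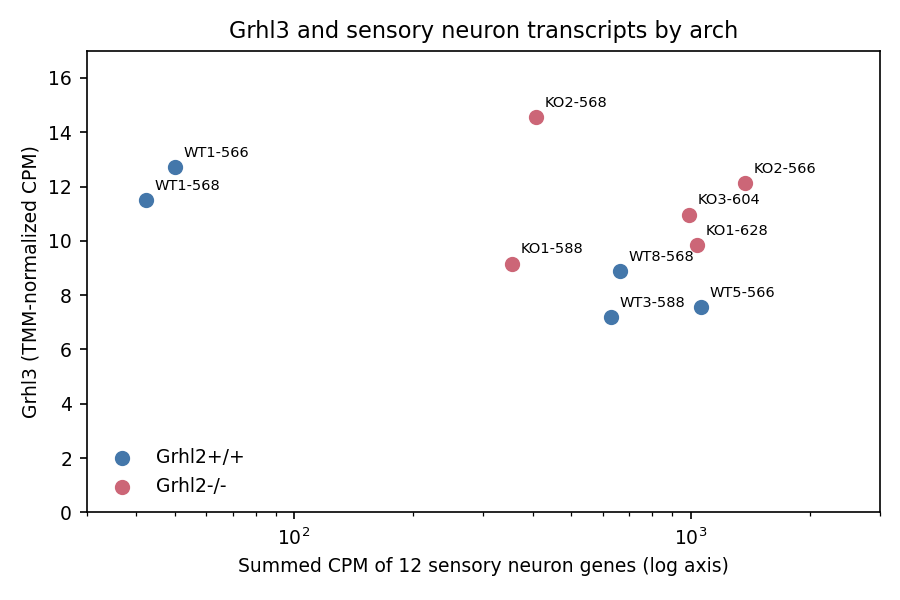
Grhl3 in TMM-normalized CPM (vertical axis, linear) against the summed CPM of 12 sensory neuron genes (horizontal axis, log scale) in 10 arches. WT1-566 and WT1-568 stand apart on the left at 50.1 and 42.3 CPM of neuron genes, with Grhl3 at 12.7 and 11.5 CPM, and among the other 8 arches the 3 wild-type values of Grhl3 are all below the 5 mutant values.

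Grhl1, a regulator of desmosomal genes in the epidermis and hair follicle, lies on the plus strand at chr12:24572283-24617391 and was close to the limit of detection. It had 13, 16, 16, 21 and 19 reads in WT1-566, WT1-568, WT3-588, WT5-566 and WT8-568. In KO1-588, KO1-628, KO2-566, KO2-568 and KO3-604 it had 15, 9, 16, 15 and 1 reads. After normalization the lowest wild-type arch was at 0.558 CPM and the highest mutant arch at 0.554 CPM, both from 16 reads, so the groups are parted by less than 1 read. The means were 0.651 ± 0.105 CPM in Grhl2+/+ and 0.402 ± 0.220 CPM in Grhl2-/- (SD, n = 5 each). The log2 fold change of -0.99 did not pass the test (95% confidence interval -2.12 to 0.13, FDR 0.225 from limma-voom). KO3-604 decided much of this value, since without it the log2 fold change was -0.40 (FDR 0.299). At this depth the interval runs from 0.230-fold to 1.10-fold of the wild-type level.

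Ubp1, a widely expressed CP2 factor also known as LBP-1a, was the most abundant member. It lies on the plus strand at chr9:113930934-113977202. The wild-type arches WT1-566, WT1-568, WT3-588, WT5-566 and WT8-568 had 168.4, 166.4, 157.0, 166.3 and 160.5 CPM. Ubp1 was at 161.8, 152.4, 148.8, 147.9 and 165.9 CPM in KO1-588, KO1-628, KO2-566, KO2-568 and KO3-604. The mutants KO1-588 and KO3-604 were within the wild-type range and the other 3 below it. The log2 fold change was -0.08 (0.891-fold to 1.01-fold, FDR 0.243 from limma-voom), which did not pass the test. Ubp1 shares 496 exon bases with Fbxl2 and 119 with Gm47950, both on the opposite strand.

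Tfcp2, which encodes CP2 itself, a factor first described at the alpha-globin promoter, varied little among arches. It lies on the minus strand at chr15:100498012-100552008 and overlaps no other annotated gene. It ranged from 44.3 to 50.2 CPM among wild-type and from 44.6 to 50.01 CPM among mutant arches, with means of 46.6 ± 2.20 and 47.2 ± 1.93 CPM (SD, n = 5 each). The log2 fold change of 0.02 had the interval 0.948-fold to 1.09-fold (FDR 0.780 from limma-voom). A change in Tfcp2 of more than this is outside the 95% confidence interval, which is the narrowest in relative terms together with that of Ubp1.

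Tfcp2l1, at chr1:118627945-118685168 on the plus strand, was low in both genotypes. It had 31, 40, 56, 48 and 29 reads in WT1-566, WT1-568, WT3-588, WT5-566 and WT8-568, and 53, 25, 60, 34 and 34 reads in KO1-588, KO1-628, KO2-566, KO2-568 and KO3-604. The highest arch, KO2-566, and the lowest, KO1-628, were both mutants. The means were 1.54 ± 0.306 CPM in Grhl2+/+ and 1.49 ± 0.471 CPM in Grhl2-/- (SD, n = 5 each), with a log2 fold change of -0.08 and an interval of 0.665-fold to 1.34-fold (FDR 0.842 from limma-voom). Tfcp2l1 shares 130 exon bases with the small nuclear RNA gene Gm23497 on the same strand.

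**Figure D3:**
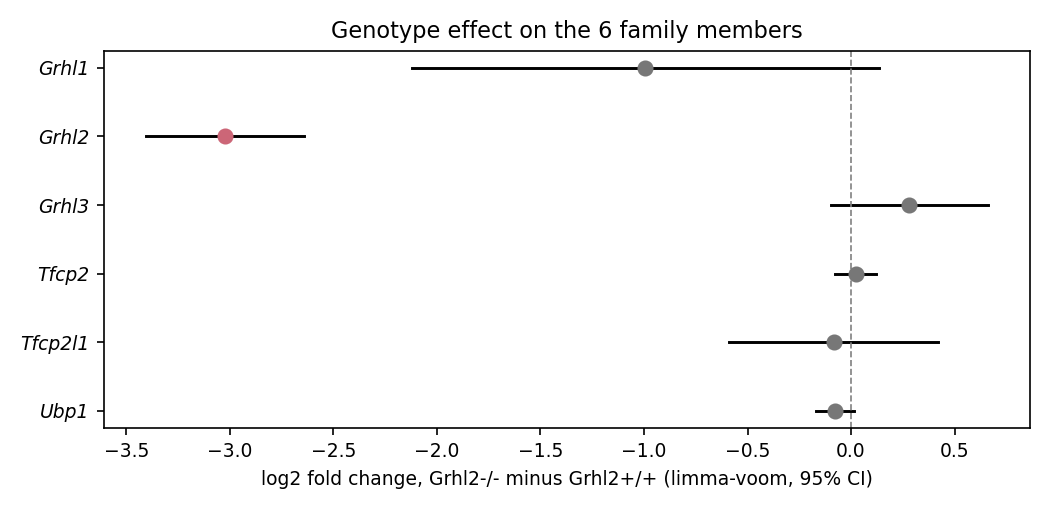
Log2 fold change of each member (horizontal axis, Grhl2-/- minus Grhl2+/+, n = 5 each) with its 95% confidence interval from limma-voom. The interval of Grhl2 alone does not reach 0, around -3.02, and the interval is widest for Grhl1, from -2.12 to 0.13, and narrow for Tfcp2 and Ubp1.

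Levels of different genes were compared per length, as TMM-normalized CPM per kilobase of merged exons in GENCODE vM21. In Grhl2+/+ PA1 the order was Ubp1 at 34.4 ± 1.01, Tfcp2 at 5.77 ± 0.273, Grhl2 at 4.13 ± 0.382, Grhl3 at 3.43 ± 0.876, Tfcp2l1 at 0.163 ± 0.0324 and Grhl1 at 0.117 ± 0.0190 (SD, n = 5). The ranges of the neighbours Grhl2 and Grhl3 overlapped, as did those of Tfcp2l1 and Grhl1, and the other neighbours did not overlap. Ubp1 was above 90.0% of the genes in level and Grhl1 above 6.78%. In Grhl2-/- PA1 the order was Ubp1, Tfcp2, Grhl3, Grhl2, Tfcp2l1 and Grhl1, with 32.7 ± 1.69, 5.86 ± 0.240, 4.06 ± 0.761, 0.526 ± 0.168, 0.158 ± 0.0499 and 0.0726 ± 0.0397 CPM per kilobase, and no neighbours overlapped. The overlaps hold for merged exons. In wild-type PA1 Grhl2 and Grhl3 did not overlap with coding length or the longest transcript, Tfcp2l1 and Grhl1 did not overlap with coding length, and with the longest transcript Grhl1 came before Tfcp2l1. In the mutants Grhl2 and Tfcp2l1 overlapped with coding length, and Tfcp2l1 and Grhl1 with the longest transcript. Grhl2 moved from rank 3 to rank 4 and Grhl3 from rank 4 to rank 3. The ratio of Grhl2 to Grhl3 in wild-type PA1 depended on the length used, being 1.203 with merged exons, 2.09 with the longest transcript and 3.41 with coding length.

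The 3 Grhl genes together fell from 7.68 ± 0.866 to 4.66 ± 0.840 CPM per kilobase, to 60.7% of the wild-type sum. The sum ran from 6.54 to 8.85 over wild-type and from 3.995 to 6.05 over mutant arches. KO2-568, with the most Grhl3, had the highest mutant sum and was the only mutant above 5 CPM per kilobase. The share of Grhl2 in this sum went from 54.2 ± 6.80% to 11.4 ± 3.34%, and that of Grhl3 from 44.2 ± 6.96% to 87.1 ± 3.53% (SD, n = 5 each). These shares are set by both genes, and the level of Grhl3 itself was 3.43 and 4.06 CPM per kilobase. With other lengths the Grhl sum in the mutants was 37.1% (coding length) or 47.1% (longest transcript) of that in wild type. The 3 CP2 genes together were at 40.4 ± 1.16 and 38.7 ± 1.57 CPM per kilobase.

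No rise in Grhl3 passed the test, and its difference in means is set here beside the loss of Grhl2 as a description. Grhl2 lost 31.0 CPM and the mean of Grhl3 differed by 1.76 CPM, which is 5.67% of the loss, or 17.5% of it per kilobase of merged exons, 10.1% with the longest transcript and 6.18% with coding length. The CPM difference fell to 0.952 without KO2-568 and was 3.45 without WT1-566 and WT1-568. To make up the loss per kilobase, Grhl3 would have had to reach 2.05-fold of its wild-type level (2.83-fold with the longest transcript and 3.97-fold with coding length). The upper bound of its 95% confidence interval was 1.58-fold, and 1.83-fold without WT1-566 and WT1-568, where the fold needed against the other 3 wild-type arches was 2.296-fold. These bounds are for mRNA in the whole arch, and protein levels and the levels within the epithelium were not measured here. In whole tissue, fewer cells of a type and less RNA per cell cannot be told apart.

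**Figure D4:**
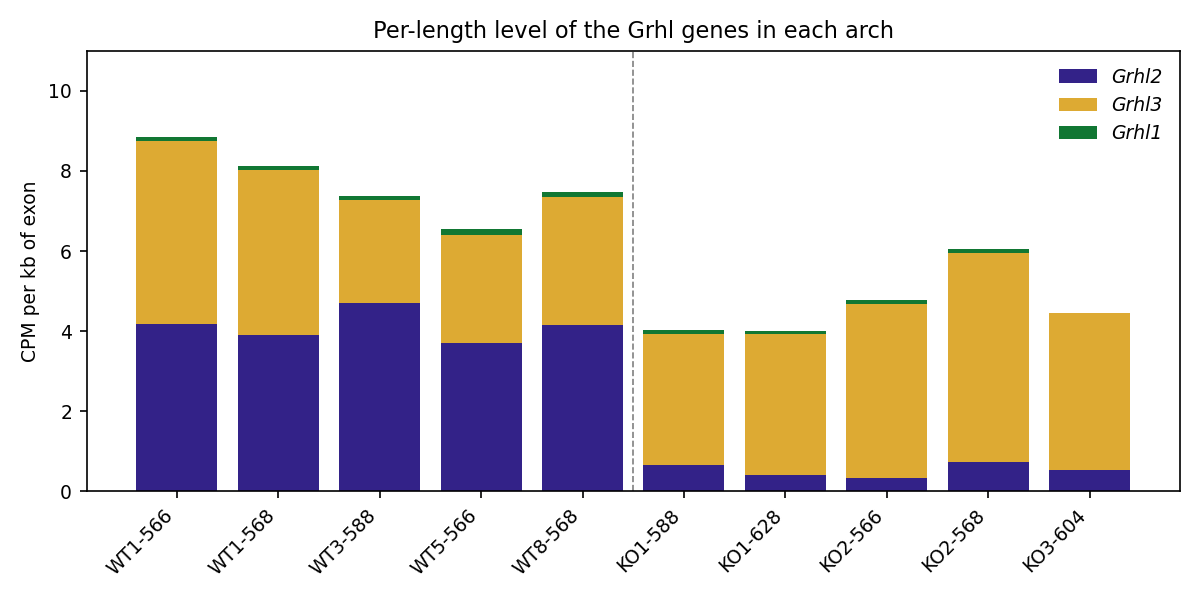
Level of Grhl2, Grhl3 and Grhl1 in CPM per kilobase of merged exon (vertical axis, linear, stacked bars) in each arch (horizontal axis), with the wild-type arches left of the dashed line. The stack is 6.54 to 8.85 in wild-type and 3.995 to 6.05 in Grhl2-/- arches, and Grhl3 makes up 81.6% to 91.1% of it in the mutants.

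The arches held the cell types of the labelled tissue. The mesenchyme genes had summed levels of 2274 to 2979 CPM in wild-type and 2082 to 2474 CPM in mutant arches, and of 12 tested 1 was called lower, Msx1 (a homeobox gene of jaw and tooth mesenchyme, log2 fold change -0.66, FDR 0.00595 from limma-voom), and 0 higher. Of the 12 mesenchyme genes 11 had a log2 fold change below 0, with a median of -0.24, 6 were lower and 0 higher at an unadjusted p below 0.05 with limma-voom (14.3% and 14.2% of all genes tested), and DESeq2 called 3 lower. Of 16 other epithelial genes, 8 were called lower and 0 higher, against 1.09% and 0.879% of all genes tested. Their median log2 fold change was -0.43 against 0.01 over all genes tested. Their summed levels were 314.1 to 404.5 CPM in wild-type and 291.8 to 365.4 CPM in mutant arches. Among those called lower were Krt5 (a basal keratin) at -2.64 and Lamb3 (a laminin chain of the basement membrane) at -2.00. At that unadjusted threshold 9 of the 16 epithelial genes were lower and 2 higher, the latter being Krt14 (a basal keratin) at 0.33 and Foxe1 (a forkhead factor of oral and thyroid epithelium) at 0.48. Trp63, the factor that defines basal epithelium, showed a log2 fold change of -0.24 (FDR 0.0566), the simple keratin Krt18 one of -0.07 (FDR 0.848 from limma-voom), and neither was called. Without WT1-566 and WT1-568, 2 of the 16 epithelial genes and 0 of the 12 mesenchyme genes were called lower, and with the neuron covariate 4 and 0 were. The part of epithelial content in the Grhl2 and Grhl3 values was not tested. Of the endothelial (7), erythroid (8), macrophage (6) and muscle (6) genes, 0 were called in either direction by limma-voom or edgeR, and DESeq2 called 2 endothelial genes higher. At the unadjusted threshold, 4 of 7 endothelial genes were higher, and 4 of 8 erythroid genes and 1 of 6 muscle genes were lower.

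Of 25 tested genes reported as GRHL targets, 20 were called lower and 0 higher in Grhl2-/- PA1, against 1.09% and 0.879% of all genes tested. The median log2 fold change was -2.24. All 25 had a log2 fold change below 0, and 18 were called lower without WT1-566 and WT1-568. The list was drawn up with earlier results of these arches known, so it is not independent evidence of its direction. The most negative were Prom2, a membrane protein of epithelial protrusions, at -6.21, Ovol2 at -4.01 and Ovol1 at -3.76, both zinc finger repressors that keep epithelia from turning mesenchymal. Fitted values of this size depend on the prior count, since Ovol1 and Ovol2 had 0 to 5 reads and Prom2 had 1 to 5 reads per mutant arch. The 5 that were not called were Cldn3, Elf3, Tgm1, Tmprss2 and Sostdc1, and Dsg1a had 0 reads in every arch and was not tested. Tmprss2 (log2 fold change -3.16, FDR 0.0128 from limma-voom) and Cldn3 (-0.91, FDR 0.0127) lay just outside the threshold, and Tgm1 was at -1.23 (FDR 0.0410). Elf3, an epithelial ETS factor, had 4.65 ± 0.151 CPM in Grhl2+/+ and 3.81 ± 0.637 CPM in Grhl2-/- (SD, n = 5 each, FDR 0.122 from limma-voom), and Sostdc1, a secreted BMP and Wnt antagonist, had 13.5 ± 1.38 and 12.9 ± 1.32 CPM (FDR 0.667 from limma-voom).

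Of 13 genes that work with or against GRHL factors, such as Lmo4, the planar polarity genes and Zeb1, 0 were called in either direction by limma-voom or edgeR and 1 was called lower by DESeq2, and the median log2 fold change was 0.07. At an unadjusted p below 0.05 with limma-voom 2 of the 13 were lower and 4 higher, against 14.3% and 14.2% of all genes tested. These are levels in the whole arch, where Zeb1 had 120.7 CPM in Grhl2+/+ and 143.7 CPM in Grhl2-/-. Levels within the epithelium were not measured here. In isolated Grhl2-/- PA1 epithelium the study reports Zeb1, Zeb2, Snai1 and Twist1 as upregulated by quantitative RT-PCR. It proposes that mesenchyme, the bulk of PA1, hid this in whole arches, which was not tested here. Of 14 tested partners and reported targets of CP2 factors, 1 was called lower and 0 higher, against 1.09% and 0.879% of all genes tested, with a median of -0.11. At the unadjusted threshold 3 of the 14 were lower and 0 higher. The gene called lower was Tbx3, a T-box factor linked to Tfcp2l1 in stem cells, with 148.5 ± 14.2 CPM in Grhl2+/+ and 109.2 ± 8.05 CPM in Grhl2-/- (SD, n = 5 each, log2 fold change -0.44, FDR 0.00426 from limma-voom). No gene of this list was called without WT1-566 and WT1-568 or with the neuron covariate. The alpha-globin genes Hba-x, Hba-a1 and Hba-a2, at which CP2 was described, had log2 fold changes of -0.35, -0.30 and -0.26 and were not called, and they also stand in the erythroid list.

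**Figure D5:**
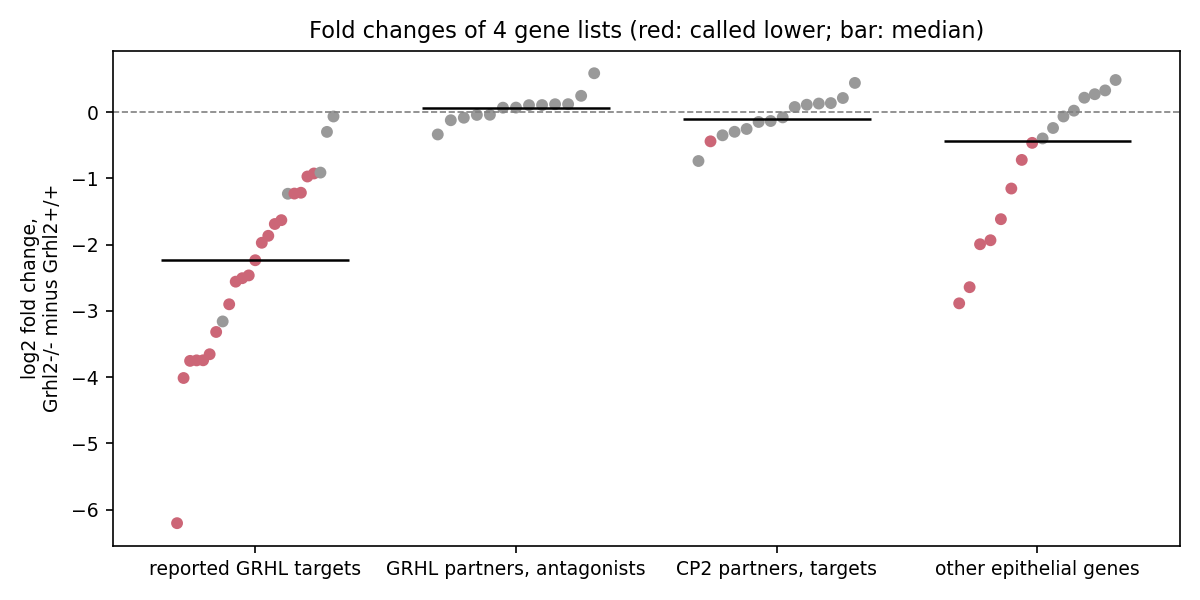
Log2 fold change (vertical axis, Grhl2-/- minus Grhl2+/+, n = 5 each) of each gene in 4 lists (horizontal axis), with genes called lower in red and the median of each list as a bar. The GRHL targets have a median of -2.24 and lie below 0 throughout, the partners of GRHL factors lie around 0.07 and those of CP2 factors around -0.11, and the other epithelial genes spread to both sides of 0 around a median of -0.43.

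The promoters were searched for the GRHL site in the RefSeq windows on GRCm38.p6, which run from 250 bases before to 50 bases after each gene start. Windows were matched for 5 of 6 members, not for Grhl2, and for 15 of the listed GRHL targets. The full palindrome AACCGGTT was in 0.146% of all 32851 windows, or 0.174% of genes, and in none of the 5 members or 15 targets. The looser AACNGGTT, searched on both strands, was in 2.09% of windows and 2.35% of genes, in 0 members and in 1 target, Rab25. The shorter AACCGG, which is part of the palindrome and was searched on both strands (CCGGTT on the other), was in 6.83% of windows and 7.74% of genes with a window, in 1 member, Ubp1 (in 1 of its 2 windows), and in 4 of 15 targets, namely Cldn7, Prom2, Spint1 and Elf3. A match describes these letters only, and the lack of one says only that they are not in this window. The 80 bases around each match in Ubp1, Prom2 and Rab25 are shown, with the match in capitals, together with a stretch of the same length before the start of Grhl3, the other abundant Grhl gene, which has no match. They run 5′ to 3′ on the strand of the gene, at chr9:113930959-113931038 (plus) for Ubp1, chr2:127541418-127541497 (minus) for Prom2, chr3:88548338-88548417 (minus) for Rab25 and chr4:135573669-135573748 (minus) for Grhl3.
Ubp1: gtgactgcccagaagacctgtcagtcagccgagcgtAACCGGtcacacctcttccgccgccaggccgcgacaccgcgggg
Prom2: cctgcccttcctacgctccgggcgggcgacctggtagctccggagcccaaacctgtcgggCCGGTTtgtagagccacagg
Rab25: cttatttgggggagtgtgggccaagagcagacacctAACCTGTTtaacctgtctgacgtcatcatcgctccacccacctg
Grhl3: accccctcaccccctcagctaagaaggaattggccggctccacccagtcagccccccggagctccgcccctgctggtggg
Rab25 and Prom2 were both called lower, at log2 fold changes of -3.75 and -6.21, while Ubp1 and Grhl3, at -0.08 and 0.28, were not called. The other targets with a match, Cldn7, Spint1 and Elf3, changed less, at -1.63, -0.93 and -0.30, and Elf3 was not called. Of the targets with a window, AACCGG was in 3 of 11 that were called lower and in 1 of 4 that were not.

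The members varied among arches largely apart from each other. After the genotype means were removed, the correlation of log2 CPM between pairs of members ran from -0.60 (Grhl1 and Ubp1) to 0.41 (Grhl3 and Tfcp2) over 10 arches, and that of Grhl2 with Grhl3 was 0.05. The value for Grhl1 and Ubp1 rested on KO3-604, with 1 read of Grhl1, since Spearman's rho was -0.33 and Pearson's r without this arch was 0.02. These are descriptions, and the members of a pair were measured in the same 10 libraries. Among 12692 genes with a mean of at least 1 CPM, the genes whose deviations were most like those of Grhl3 were Pitx1 (a homeobox gene of the jaw), Rnf144a and Rad21, with Pearson r of 0.95, 0.94 and 0.94. For Grhl2 they were Igsf1, Bola1 and Vasp (0.96, 0.95 and 0.95), and for Grhl1 Raet1e, 3110070M22Rik and Yif1b (0.94, 0.94 and 0.91, and 0.11, 0.77 and 0.73 without KO3-604). Acadsb, Sdc4 and Wdyhv1 came first for Tfcp2 (0.97, 0.96 and 0.95), Taf6l, Dnajc15 and Prpf19 for Tfcp2l1 (0.96, 0.96 and 0.95) and Hsf1, Xrcc3 and Vwa7 for Ubp1 (0.94, 0.94 and 0.94). These are the highest values in a search of 12692 genes over 10 arches, and the top value was similar for every member, at 0.94 to 0.97. Whether they exceed what such a search gives without shared variation was not tested. Total counts were 22188454 to 28596428 per wild-type arch and 25658389 to 28801378 per mutant arch, and no pair of arches within a genotype had the same counts within sampling noise.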

How the data were processed

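RNA from PA1 of 5 Grhl2+/+ and 5 Grhl2-/- embryos had been sequenced from ribosomal-RNA-depleted, strand-specific libraries as single-end reads. The authors aligned the reads to GRCm38 with STAR, counted them with featureCounts and deposited raw counts per gene. Their processing notes also name edgeR 3.18.1 and limma 3.32.7. The annotation release is not given in the sources used here. The strand setting of the counting is not stated either, apart from the word Reverse in the name of the deposited counts. A table of the authors' own fold changes and p-values was not used. The labels name separate embryos. Here, the 14561 genes reaching 10 counts in 1 or more arches entered the test. TMM factors came from edgeR 4.0.16 and the fit from limma 3.58.1 voom in R 4.3.3. Genotype was the sole term, p-values were adjusted by Benjamini-Hochberg and calls were made at FDR below 0.01. Log2 CPM used a prior count of 0.5. Methods were tested on simulated data. Coordinates and lengths are from GENCODE vM21, which matched 21721 of 22114 genes by identifier, and promoter sequences are from RefSeq on GRCm38.p6. Total counts were 22188454 to 28801378, and the level of 3 reads covers counting error only. The 95% confidence intervals are those of limma and include the spread between arches.

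Named genes are the 6 members, in each list the 3 most negative and 3 most positive called genes, markers needed to say that they were not called, and the 3 genes most like each member. The values of 1 gene that this rule names are not reported here. Genes listed by name only as uncalled or as examples were added with their values seen. The members and lists were chosen with earlier results of these data known. Other fits used the quasi-likelihood test of edgeR, DESeq2 1.42.0 with independent filtering off, other size factors and filters, quality weights, the label number as a block, a sensory neuron covariate, other lengths and leaving out arches.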

Additional observations from a re-analysis of the deposited data

Results flagged for a closer look

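Grhl1 in KO3-604 stood apart from the other Grhl2-/- arches, at -4.13 on the log2 CPM scale (1 read) with the next lowest arch, KO1-628, at -1.44 (9 reads). The gap was 0.807 of the range of the 5 arches, above the 95% limit of Dixon's test. On the CPM scale the gap of the same arch was 0.602 of the range, under that limit, and the log2 value at 1 read depends on the prior count. Of 34 groups tested 1 stood apart in this way, and chance at 1 in 20 gives 1.7.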

How the results depend on the processing

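Grhl2 was called lower and no other member was called in every fit, including FDR below 0.05, each arch left out, and the 2 wild-type arches with the fewest sensory neuron transcripts left out, which was added after the data were seen. With each arch left out, log2 fold changes were -3.16 to -2.86 for Grhl2, 0.18 to 0.38 for Grhl3, -1.20 to -0.40 for Grhl1, -0.11 to -0.06 for Ubp1, -0.0022 to 0.048 for Tfcp2 and -0.22 to 0.046 for Tfcp2l1. Tfcp2 turned negative without KO1-628 (-0.0022), and Tfcp2l1 turned positive without KO1-628 (0.046), without WT3-588 (0.0070) and with the label number as a replicate block (0.10). These signs rest on values near 0 and the cause was not tested. The labels do not say what the number means. Only pairs of a wild-type with a mutant arch were compared. In these, deviations of same-numbered arches correlated at -0.24 to 0.42 (5 pairs, mean 0.105) and those of arches with other numbers at -0.43 to 0.34 (20 pairs, mean -0.025). Of the 8 arches whose number occurs in both genotypes, 4 correlated best with an arch of their own number. With the replicate block the log2 fold changes were 0.41 for Grhl3 (FDR 0.166) and -0.23 for Grhl1 (FDR 0.575). The unadjusted 95% interval of a member other than Grhl2 excluded no change in some fits, namely for Grhl3 with the replicate block (1.03-fold to 1.73-fold), with the neuron covariate (1.09 to 1.77), without the 2 low-neuron arches (1.10 to 1.83) and without WT1-566 (1.004 to 1.68), for Grhl1 with quality weights (0.180 to 0.911), and for Ubp1 without KO3-604 (0.874 to 0.984) and without KO1-588 (0.876 to 0.994). Over the other alternatives Grhl1 ranged down to -1.30, with quality weights. Over all genes, 158 were called lower and 128 higher, against 69 and 60 with the block, 553 and 520 with DESeq2, 213 and 204 with quality weights, 117 and 57 with the neuron covariate, and 90 and 19 without the 2 low-neuron arches. Leaving out 1 arch gave 110 to 249 lower and 42 to 143 higher. Per-length levels depend on the length by construction. With coding length the Grhl sum was 23.7 (wild type) and 8.77 (mutant), the family sum 151.3 and 131.5, and Grhl1 plus Grhl3 5.63 and 6.47 CPM per kilobase. The Grhl2 share was then 76.2% and 26.1%, and the Grhl3 share 22.3% and 71.5%. With the longest transcript the Grhl sum was 10.8 in wild type, the family sum 66.0 and 58.4, the Grhl2 share 66.7% and 18.0%, and the Grhl3 share 31.5% and 79.7%. Depth limits Grhl1 and Tfcp2l1 most, at 1 to 21 and 25 to 60 reads per arch.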
